A study of Mus musculus with 4 samples.

Results

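The chemokines that draw neutrophils and their receptor were followed through the mouse carotid artery before and after wire injury. They comprised 6 genes, namely the ligands Cxcl1 (ENSMUSG00000029380), Cxcl2 (ENSMUSG00000058427), Cxcl3 (ENSMUSG00000029379), Cxcl5 (ENSMUSG00000029371) and Ppbp (ENSMUSG00000029372) and the receptor Cxcr2 (ENSMUSG00000026180). The genes were taken by symbol, out of 31053 listed genes of which 20506 had at least 1 unique molecular identifier (UMI, the tag that counts an RNA molecule once), and all 6 were detected. The comparison asked which cells carried the ligand RNA and which carried the receptor RNA on each day, and cells were never selected by Cxcr2.

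The ligands are CXC chemokines, small secreted proteins that are held on matrix and vessel wall and form a gradient. CXCR2 is a G protein-coupled receptor of neutrophils that reads this gradient, and it is the shared receptor of these ligands in the mouse. Macrophages, fibroblasts and neutrophils themselves can make the ligands, most of which are induced through NF-kB by interleukin-1, TNF or microbial products, whereas Ppbp is best known as a platelet gene.

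Carotid arteries of C57BL/6 mice were profiled cell by cell with a droplet RNA-sequencing kit, with 1 library from uninjured vessels (day 0) and 1 each from days 3, 7 and 14 after injury. The labels give an age of 11 weeks before injury, and per the study's methods the animals were male, the left carotid was injured with a wire, at least 5 arteries were pooled for each time point after injury, and thrombosed vessels were left out. The tissue of every library was cut up, digested with enzymes for 1 h at 37°C and freed of dead cells. Because each day was a single pooled library, day and library cannot be told apart, no test was possible, and each interval given here is an exact 95% interval for the error of counting alone.

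Of 333, 1689, 3001 and 1138 barcodes at days 0, 3, 7 and 14, 329, 1508, 2693 and 1091 were kept, with median counts of 5688, 4818, 6317 and 9481 UMIs per cell. The kept cells held 9537 UMIs of Cxcl1, 75173 of Cxcl2, 845 of Cxcl3, 3157 of Cxcl5, 626 of Ppbp and 1072 of Cxcr2. Libraries shared barcodes, namely 152 between days 0 and 3, 64 between days 7 and 14 and 1 between days 3 and 7. In nearly all of these pairs 1 barcode was far shallower than the other, and 48 of the kept cells of day 0, 103 of day 3 and 62 of day 14 were such shallow copies, called copies below. Of the day 3 copies 93 lay among the 176 fibroblast-like cells. Values are given with the copies, and again without them for the values of Cxcl1 and Cxcl5 that they moved most. Classes carry the ending "-like" because they were named from marker genes alone, and 664 cells (11.8%) stayed unnamed.

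The ligand genes stand side by side on chromosome 5, in the order Cxcl5, Ppbp, Pf4, Cxcl3, Cxcl15, Cxcl1 and Cxcl2, and Cxcr2 lies on chromosome 1. RefSeq promoters (mouse GRCm38.p6) were found for 5 of the 6 genes, with Cxcl5 missing from the table. The promoters of Cxcl1, Cxcl2 and Cxcl3 are shown because these genes share the longest run of bases held by at least 3 of the promoters, 11 bases that read GGGAATTTCCC and are set in capitals. All lie on the plus strand and end at the base before the start of the gene. The sequence of Cxcl1 is at chr5:90891125-90891244, that of Cxcl2 at chr5:90903779-90903898 and that of Cxcl3 at chr5:90785981-90786100.
Cxcl1: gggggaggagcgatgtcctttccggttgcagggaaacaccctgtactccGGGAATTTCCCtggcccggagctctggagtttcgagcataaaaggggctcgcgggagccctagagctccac
Cxcl2: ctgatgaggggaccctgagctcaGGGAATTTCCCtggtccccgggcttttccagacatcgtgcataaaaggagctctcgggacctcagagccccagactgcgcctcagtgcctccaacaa
Cxcl3: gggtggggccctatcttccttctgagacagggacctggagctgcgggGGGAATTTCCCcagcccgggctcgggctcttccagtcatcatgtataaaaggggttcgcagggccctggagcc

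The run has the form of a kB element, the kind of DNA sequence that NF-kB binds. It began 71, 97 and 73 bases before the start in Cxcl1, Cxcl2 and Cxcl3, and the promoters of Ppbp and Cxcr2 did not hold it. Within 250 bases before the start, on either strand (reverse complement GGGAAATTCCC), 14 of 32851 RefSeq promoters held it (0.0426%). As the run was read from these same promoters, this is a description of their likeness.

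In the whole libraries, all 6 genes were low or undetected before injury. Levels are given as CPM, the UMIs of a gene per 1000000 UMIs of the cells summed, and on this scale all 6 were highest at day 3. Cxcl2 had 0 UMIs at day 0, which allows up to 1.13 CPM (3 counts, used as the limit wherever a count was 0), and stood at 1618, 1402 and 661 CPM at days 3, 7 and 14. Cxcl1 stood at 14.3, 206.5, 146.8 and 141.9 CPM. Cxcl1 and Cxcl2 were the 2 ligands that persisted in the day 14 library.

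Cxcl5 stood at 6.04, 121, 33.3 and 3.90 CPM at days 0, 3, 7 and 14. Cxcl3 (0, 25.5, 14.3 and 0.230 CPM) and Ppbp (0, 24.3, 6.85 and 0.230 CPM) had 3 UMIs each at day 14. Cxcr2 stood at 0, 42.9, 10.9 and 0.230 CPM, again with 3 UMIs at day 14. Cxcl3, Ppbp and Cxcr2 were thus at the limit of detection by day 14. For Cxcl5, days 0 and 14 stood at 1.15 CPM (0.237 to 3.36) and 3.23 CPM (2.32 to 4.36) without the copies, and these intervals overlapped.

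Relative to day 0, the day 3 level of Cxcl1 was 14.4-fold higher (10.5 to 20.4) and that of Cxcl5 20.1-fold higher (12.3 to 35.2). For the genes at 0 UMIs, taking 3 UMIs as the day 0 floor, the day 3 level was at least 1429-fold higher for Cxcl2, at least 37.9-fold for Cxcr2, at least 22.5-fold for Cxcl3 and at least 21.4-fold for Ppbp. All 6 genes were therefore more than 2-fold higher at day 3, against 17.4% of all genes compared. The day 0 values rested on 38 UMIs of Cxcl1 and 16 of Cxcl5. Without the copies 25 and 3 remained, and the day 3 ratios became 21.7 for Cxcl1 and 106 for Cxcl5 (36.2 to 514). These ratios weight cells by their depth. With equal weight for each cell (the mean of each cell's CPM) and the copies included they were 1.37 for Cxcl1 and 0.534 for Cxcl5, but with equal weight and without the copies they were 11.6 and 35.7, so that the turn for Cxcl5 was present only with the copies. On that scale, without the copies, Cxcl1 was 15.8 and 15.5 times day 0 at days 7 and 14, above its day 3 ratio.

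From day 3 to day 7, the genes parted. Cxcr2 was 0.253 times its day 3 level (0.220 to 0.290), Cxcl5 0.274 times and Ppbp 0.282 times, whereas Cxcl2 was 0.866 times, Cxcl1 0.711 times and Cxcl3 0.562 times. The first 3 of these were more than 2-fold lower, against 4.82% of all genes. With equal weight for each cell the division was another, since Cxcl5 (0.648) was then not past 2-fold and Cxcl2 (0.433) and Cxcl3 (0.291) were. At day 14, 5 of the 6 genes were more than 2-fold lower than at day 3, against 11.6% of all genes, with Cxcl2 at 0.409 times its day 3 level. With equal weight for each cell, Cxcl5 at day 14 was 0.585 times day 3 and not past 2-fold, or 0.131 times without the copies. Cxcl1 was the exception, at 0.687 times its day 3 level and 9.89-fold above day 0. A level in a whole library moves with the number of cells of a class and with the RNA per cell, and in such a sum these cannot be told apart.

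**Figure D1:**
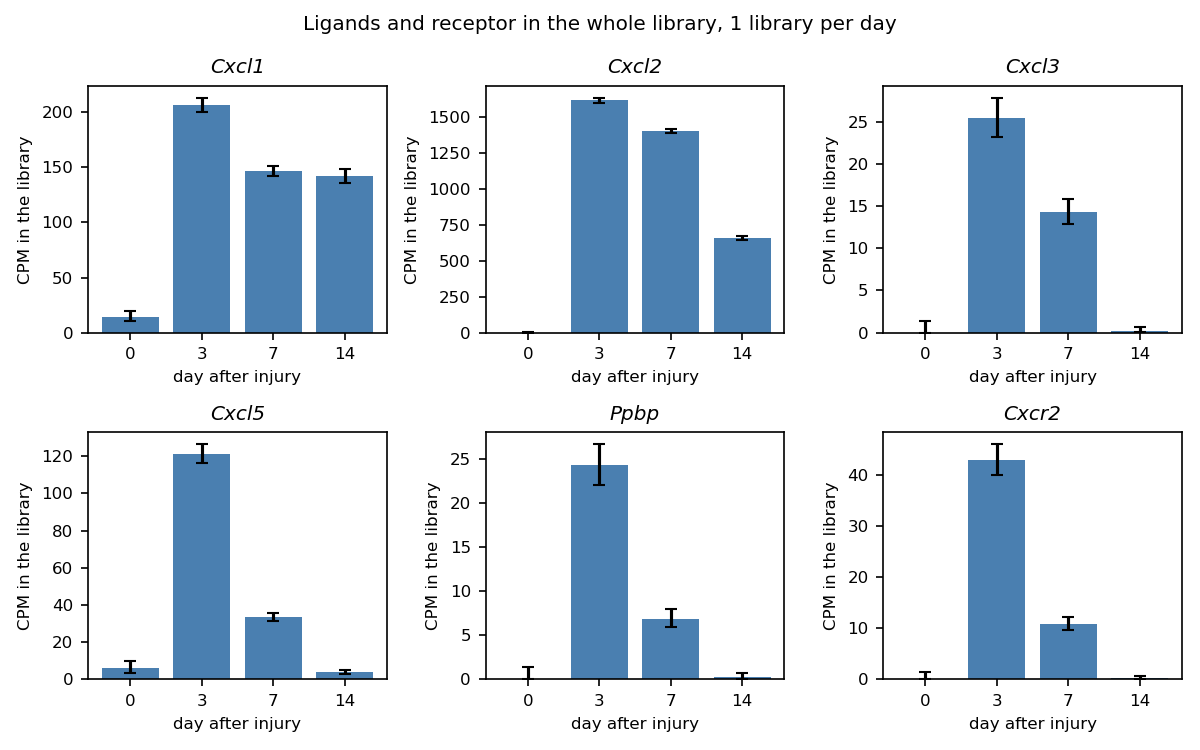
Level of each gene in the whole library (CPM, vertical axis, linear and scaled per panel) at days 0, 3, 7 and 14, with bars for 1 library per day and exact 95% Poisson intervals as error bars. Cxcl1 and Cxcl2 kept 141.9 and 661 CPM at day 14, whereas Cxcl3, Ppbp and Cxcr2 had 3 UMIs each on that day.

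Cxcl2, a ligand made early by myeloid cells, came, by UMIs, mostly from neutrophil-like cells at day 3 and mostly from monocyte/macrophage-like cells later. The neutrophil-like class held 235 cells at day 3 (15.6% of the library), 119 at day 7 (4.42%) and none at days 0 and 14, which allows shares of up to 0.912% and 0.275%. The label was checked on 13 neutrophil markers, all of which had UMIs, with S100a9 at 21303 CPM at day 3. Of all Cxcl2 UMIs, neutrophil-like cells gave 77.4% at day 3 (76.9 to 77.8) and 28.6% at day 7 (28.1 to 29.1). Monocyte/macrophage-like cells gave 18.2% (17.8 to 18.6), 63.0% (62.5 to 63.5) and 94.1% (93.6 to 94.6) at days 3, 7 and 14. With equal weight for each cell, the order at day 7 was the other way round, with 55.1% in neutrophil-like and 28.8% in monocyte/macrophage-like cells.

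Per cell class, Cxcl2 was most abundant in neutrophil-like cells. It stood there at 33710 CPM at day 3 (33274 to 34150) and 28586 CPM at day 7 (28044 to 29136), a ratio of 0.848 (0.829 to 0.868). The median cell held 48 Cxcl2 UMIs at day 3 and 45 at day 7, and the highest cell held 648 and 517. The transcript thus made up 1.89% and 1.64% of the UMIs of the median neutrophil-like cell, and up to 16.6% and 18.5% in single cells. None of the 4 members with enough UMIs for the comparison differed more than 2-fold between days 7 and 3 in this class, where 7.15% of all genes were higher and 5.86% lower by that much.

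In monocyte/macrophage-like cells, Cxcl2 was lower than in neutrophil-like cells but increased from day to day. It stood at 1018, 2477 and 5485 CPM at days 3, 7 and 14. Day 7 was 2.43 times day 3 (2.36 to 2.51), day 14 was 5.39 times day 3 (5.21 to 5.58) and day 14 was 2.21 times day 7. Of the 5 members compared at day 7, Cxcl1 and Cxcl2 were more than 2-fold higher than at day 3 (5.96% of all genes) and Ppbp lower (4.03%). At day 14 Cxcl1 and Cxcl2 were again higher (6.17% of all genes), and Cxcl3 and Ppbp lower (9.01%).

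Shares of positive cells followed the same order. After each cell was thinned to 1000 UMIs, Cxcl2 was seen in 21.8% of 531, 33.3% of 940 and 46.0% of 161 monocyte/macrophage-like cells at days 3, 7 and 14 (48.2%, 51.9% and 56.2% unthinned). In neutrophil-like cells it was seen in 86.2% of 224 and 85.2% of 108 cells (89.8% and 89.9% unthinned). T cell-like cells, which are not a usual source of Cxcl2, gave 1.54% of 65, 8.76% of 388 and 0.971% of 103 cells (23.9%, 27.1% and 4.55% unthinned). Median depths of T cell-like and monocyte/macrophage-like cells were 5402 and 7587.5 UMIs at day 3, 5600 and 8956 at day 7, and 4966.5 and 6049 at day 14. The monocyte/macrophage-like shares thus stood above this background on each day, and within that class expression was uneven, since the 10% of its cells with the most gave 82.5%, 79.1% and 70.3% of its Cxcl2 UMIs.

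Clusters of the class made up different shares of it on each day, and within its clusters led by C1qa and by Plac8 and Chil3 the increase was smaller. In the cluster led by C1qa, a complement gene of tissue macrophages, Cxcl2 stood at 1772, 3447 and 6398 CPM in 55, 273 and 130 cells, so that day 7 was 1.95 and day 14 was 3.61 times day 3. In the monocyte cluster led by Plac8 and Chil3 it stood at 1200 CPM at day 3 and 1799 CPM at day 7, a ratio with an interval of 1.40 to 1.61. Neither was past 2-fold at day 7.

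The fall of Cxcl2 in the whole library therefore went with a rise within its monocyte/macrophage-like source. With the class shares of day 14 but the class levels of day 3, the day 14 library would have stood at 262 CPM, against 661 CPM observed. The neutrophil gene S100a9 was scarce where monocyte/macrophage-like cells held Cxcl2. They held 66.2 and 243 Cxcl2 UMIs per UMI of S100a9 at days 3 and 7 and no S100a9 UMI at day 14, against 1.58 and 1.87 in neutrophil-like cells. The other classes with an S100a9 UMI, the T cell-like background included, also stood above the neutrophil-like value, between 3.8 and 71.6 at day 3 and between 12 and 47.7 at day 7.

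Genes that tissue dissociation induces moved with this rise. The summed level of a list of 12 of them in monocyte/macrophage-like cells was 5955, 12875 and 19468 CPM at days 3, 7 and 14. At day 14, 11 of the 12 were more than 2-fold higher than at day 3 (6.17% of all genes), with a median log2 ratio of 1.72 against -0.14 over all genes, and at day 7 it was 7 of 12 (5.96%), with a median of 1.12 against -0.12. T cell-like cells went from 5194 and 4982 to 10079 CPM on the same days, and fibroblast-like cells from 4854 and 7545 to 10402 CPM. Their part in the rise of Cxcl2 and Cxcl1 was not tested.

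In the other classes, Cxcl2 was lower or rested on few cells or shallow barcodes. In fibroblast-like cells it stood at 191, 82.0 and 18.4 CPM at days 3, 7 and 14 and was seen after thinning in 3.03%, 8.95% and 0.602% of cells, so that their shares did not stand above the T cell-like background at this depth. Their level was above that of T cell-like cells at day 3 (49.8 CPM) but not at day 7 (133 CPM). A single cell gave 44.2% of the T cell-like UMIs at day 7, so the order on that day is not firm. At day 14 T cell-like cells held 5 Cxcl2 UMIs among 609786, a lower level than that of fibroblast-like cells. NK cell-like cells had 55.6 and 44.9 CPM at days 3 and 7 and 0 UMIs at day 14. At day 7, a pair of unnamed clusters of 201 and 132 shallow barcodes, with medians of 879 and 631 UMIs, held 2285 and 2389 CPM and gave 1.11% and 0.586% of the library's Cxcl2. In dendritic-like cells, Cxcl2 stood at 215, 123 and 327 CPM, where a single cell gave 91.2% of the day 14 value. In 24 endothelial-like cells at day 14 it stood at 2721 CPM, of which a single cell gave 82.2%.

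**Figure D2:**
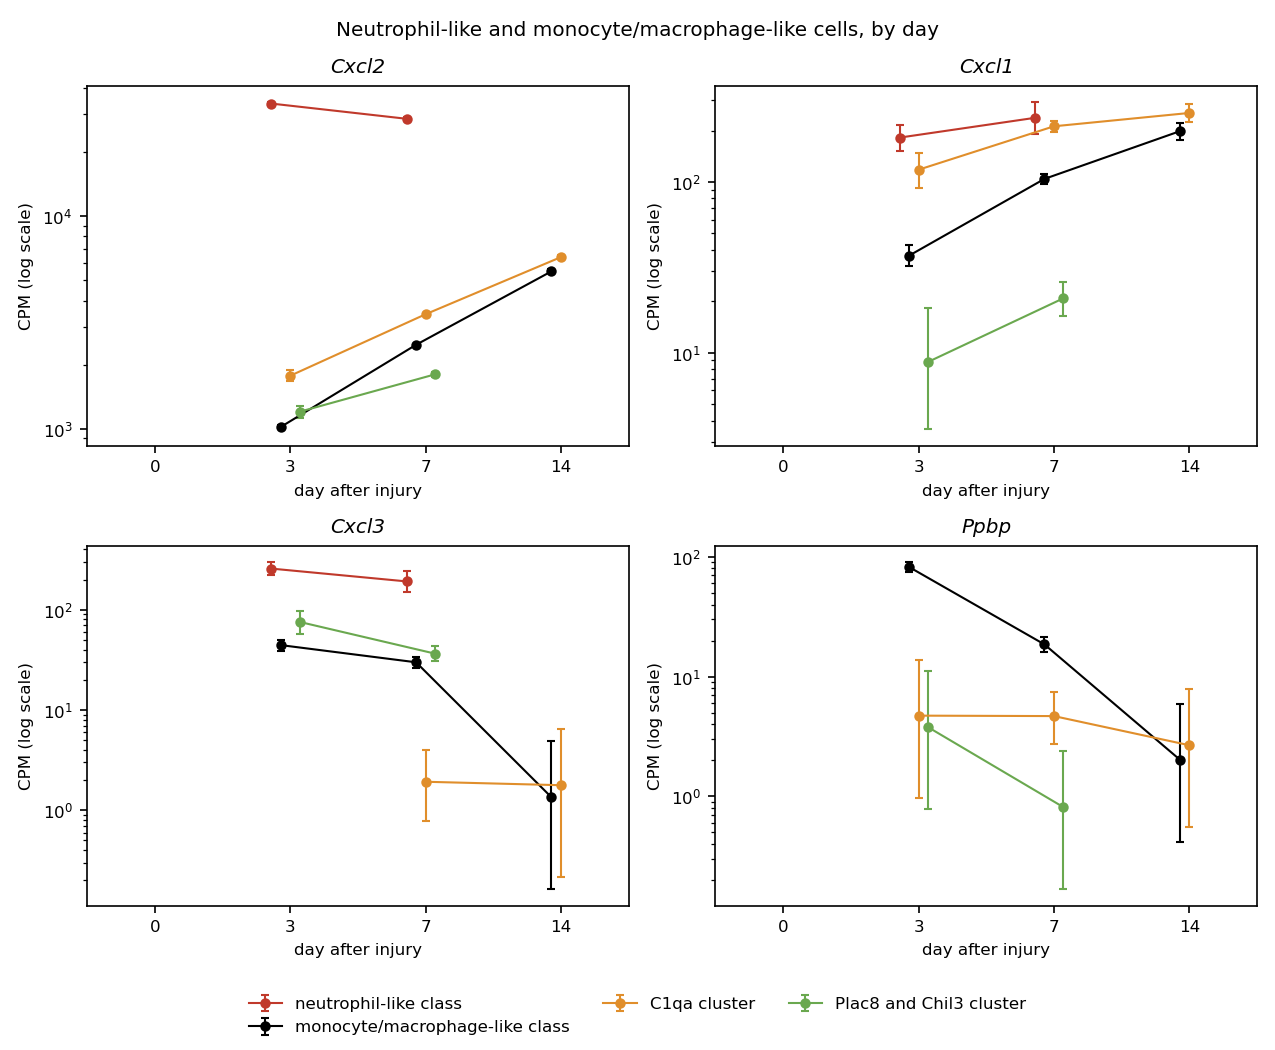
Level of Cxcl2, Cxcl1, Cxcl3 and Ppbp (CPM, log axis) by day in the neutrophil-like class, the monocyte/macrophage-like class and its clusters led by C1qa and by Plac8 and Chil3, with exact 95% Poisson intervals. Points are sums over cells, for groups of at least 20 cells with at least 1 UMI, and Cxcl2 climbs from 1018 to 5485 CPM in the monocyte/macrophage-like class while Ppbp drops from 82.3 to 2.02 CPM. The cluster with most Ppbp UMIs is not shown. It went from 274 to 44 cells between days 3 and 7, at 140 and 190 CPM of Ppbp, with 78 of the 145 UMIs of day 7 in a single cell.

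Cxcl1, a ligand made by stromal cells and macrophages, had several sources that changed with the day. At day 3, 69.2% of its UMIs lay in 37 cells of an unnamed cluster led by Prg4, Mmp3 and Lcn2, in which it stood at 1062 CPM (1022 to 1104). Of these cells 34 had a Cxcl1 UMI, the highest holding 373. All 12 fibroblast markers reached 50 CPM in this cluster, its cells were very deep (median 63138 UMIs) and it stayed unnamed by the naming rule. Prg4 and Mmp3 encode lubricin and stromelysin-1, and Lcn2 encodes lipocalin-2, an acute-phase protein.

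Fibroblast-like cells gave 65.8%, 9.35%, 27.1% and 72.3% of the Cxcl1 UMIs at days 0, 3, 7 and 14, and 45.2% at day 14 with equal weight for each cell. Their level was 11.05, 176, 218 and 149 CPM on these days, which was 16.0 (10.6 to 25.001), 19.7 (13.3 to 30.7) and 13.5 (9.12 to 21.0) times the day 0 level. Cxcl1, Cxcl2 and Cxcl5 were the 3 members compared in this class, and all were more than 2-fold higher than at day 0 on each day, against 9.95%, 11.1% and 8.9% of all genes at days 3, 7 and 14. Of these, the Cxcl2 shares were not above background, as given above, and the Cxcl5 call at day 14 rested on 41 against 3 UMIs (3.44 times, 1.10 to 17.4) and was lost without the cell that held most of them (1.68 times). The summed fibroblast-like level of Cxcl1 thus did not return to that of day 0. The cells of the class sat in different clusters on each day, so its ratios are not changes within a cluster. The cluster led by C1qtnf3 and Angptl1 held 0 cells at day 0 and 246 at day 14, and that led by Rbp4 and Lamc3 held 144 and 46. A single cell gave 34.7%, 20.8% and 9.17% of the Cxcl1 UMIs of the class at days 3, 7 and 14. With the Prg4 and Mmp3 cluster counted as fibroblast-like, the day 3 ratio was 60.1, with equal weight for each cell it was 4.18, and without the copies it was 16.6.

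Thinned to 1000 UMIs, 0.952%, 6.06%, 11.6% and 7.03% of fibroblast-like cells had a Cxcl1 UMI at days 0, 3, 7 and 14 (4.68%, 11.9%, 42.4% and 23.5% unthinned). T cell-like cells gave 0%, 1.03% and 1.94% at days 3, 7 and 14, where their level was 7.87, 8.504 and 4.92 CPM. Median depths of the fibroblast-like cells were 8126, 1096, 18466 and 18231 UMIs on the 4 days. Without the copies, the 83 fibroblast-like cells of day 3 had a median of 17808 UMIs, a thinned share of 7.32%, an unthinned share of 25.3% and a level of 183 CPM. At day 14, 51.1% of all Cxcl1 UMIs came from the fibroblast-like cluster led by C1qtnf3 and Angptl1, at 183 CPM.

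At day 7, an unnamed cluster of 25 cells led by Timp1 and Lcn2 held 32.3% of the Cxcl1 UMIs, at 1381 CPM, of which a single cell gave 592 of 1253 UMIs. A fibroblast-like cluster led by Ptn and Cxcl14 stood at 623 CPM on that day. Within the fibroblast-like class, the 10% of cells with the most gave 99.1%, 75.4% and 85.6% of its Cxcl1 UMIs at days 3, 7 and 14, so expression was uneven on each day.

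Monocyte/macrophage-like cells gave 5.18%, 25.3% and 15.8% of the Cxcl1 UMIs at days 3, 7 and 14, at 37.0, 104 and 198 CPM. Day 7 was 2.82 times day 3 (2.41 to 3.30) and day 14 was 5.36 times day 3 (4.46 to 6.46), against 2.43 and 5.39 for Cxcl2. A single cell gave 30.8% of the Cxcl1 UMIs of the class at day 3, and without it the Cxcl1 ratios were 4.05 and 7.71. After thinning, 2.64%, 3.94% and 6.83% of monocyte/macrophage-like cells had a Cxcl1 UMI (8.24%, 12.2% and 11.4% unthinned). In the C1qa cluster the level was 118, 212 and 253.5 CPM, so that days 7 and 14 were only 1.80 and 2.15 times day 3. Neutrophil-like cells stood at 182 and 237 CPM at days 3 and 7, a ratio of 1.31 (0.982 to 1.73) that did not exceed counting error, and a single cell gave 35.8% and 64.8% of these UMIs. Without that cell of day 7 the ratio was 0.466. Smooth muscle-like cells stood at 105, 89.7 and 94.1 CPM at days 3, 7 and 14, but only 9 and 6 UMIs remained at days 7 and 14 without the cell with most. Endothelial-like cells stood at 68.6, 123 and 1249 CPM, of which a single cell gave 86.6% at day 14.

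**Figure D3:**
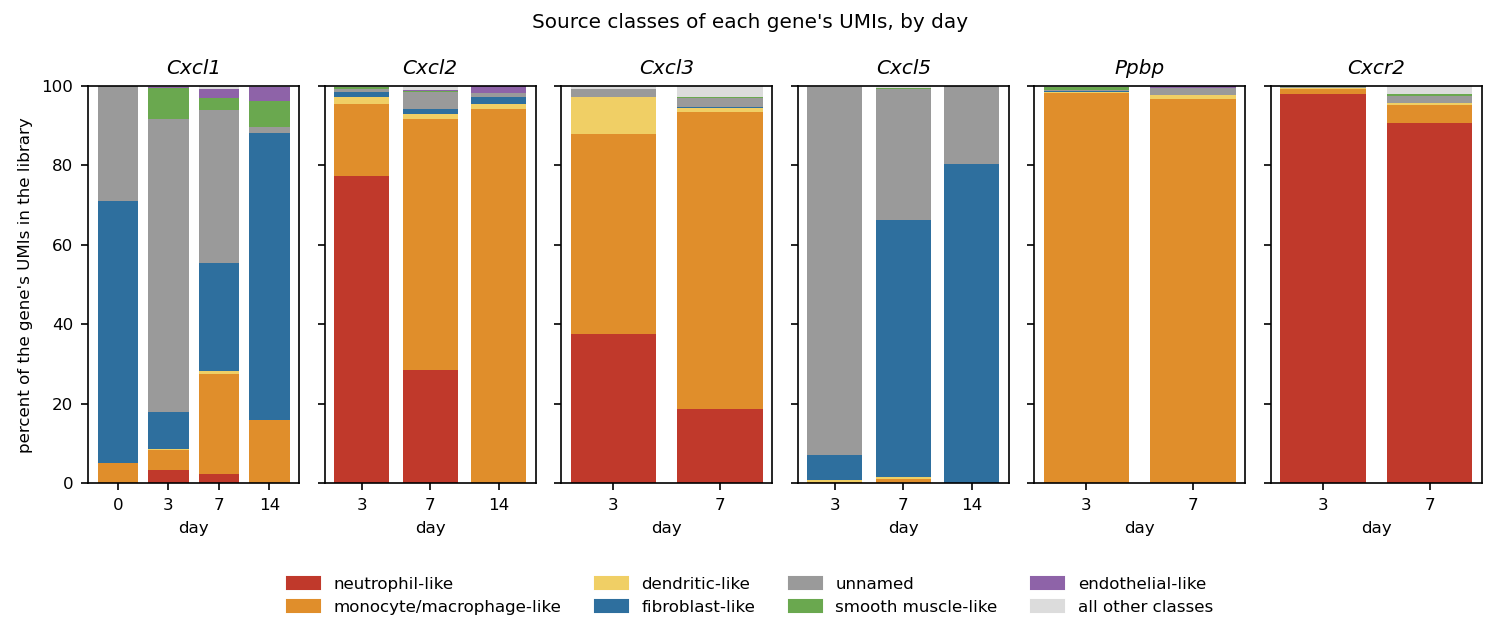
Percent of the UMIs of each gene (vertical axis, 0 to 100) that came from each cell class, as stacked bars by day, for days with at least 20 UMIs of the gene. Cxcl2 passes from neutrophil-like cells (77.4% at day 3) to monocyte/macrophage-like cells (94.1% at day 14), and Cxcr2 UMIs are 98.1% neutrophil-like at day 3.

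Cxcl5, known for its expression in epithelium, stroma and platelets, was a stromal transcript here and was confined to few cells. At day 3 the Prg4 and Mmp3 cluster held 66.9% of its UMIs, at 603 CPM (573 to 635), in 31 of 37 cells. A cluster of 13 cycling cells, each placed in a class or left unnamed by its nearest neighbours, held a further 28.9%, at 595 CPM. Unnamed cells of all clusters gave 92.6% of the Cxcl5 UMIs of day 3.

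In fibroblast-like cells, Cxcl5 stood at 1.33, 69.7, 118 and 4.57 CPM at days 0, 3, 7 and 14, on 3, 139, 569 and 41 UMIs. Day 7 was 1.70 times day 3 (1.41 to 2.06) and day 14 was 0.0656 times day 3. The first ratio turned to 0.328 when the Prg4 and Mmp3 cluster was counted as fibroblast-like, so its direction depended on where that cluster was placed. The class gave 6.29%, 64.7% and 80.4% of the Cxcl5 UMIs at days 3, 7 and 14, and a single cell gave 54.7%, 38.3% and 51.2% of the class's UMIs. Within it, 22 cells of the Ptn and Cxcl14 cluster held 63.9% of all Cxcl5 at day 7, at 675 CPM (620 to 733), with a UMI in 10 cells. With equal weight for each cell, the class gave 25.8% at day 7, and with libraries clustered separately it gave 98.3% at day 3. Most UMIs of Cxcl5 and of Cxcl1 thus lay in the Prg4 and Mmp3 cluster at day 3, but of this pair only Cxcl1 was still abundant in fibroblast-like cells at day 14.

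**Figure D4:**
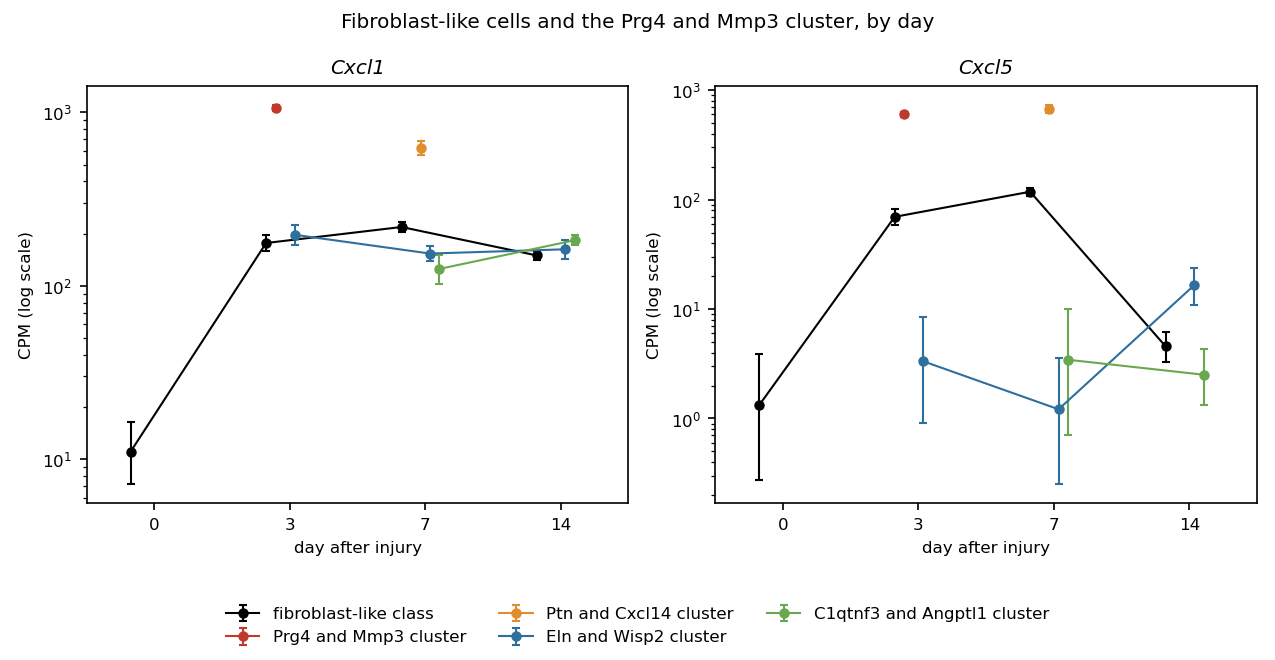
Level of Cxcl1 and Cxcl5 (CPM, log axis) by day in the fibroblast-like class and in the clusters led by Prg4 and Mmp3, Ptn and Cxcl14, Eln and Wisp2, and C1qtnf3 and Angptl1, with exact 95% Poisson intervals over the summed cells. At day 14 the fibroblast-like class held 149 CPM of Cxcl1 and 4.57 CPM of Cxcl5.

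Cxcl3, a close relative of Cxcl1 and Cxcl2, was a scarce myeloid transcript. In neutrophil-like cells it stood at 257 CPM at day 3 and 192 CPM at day 7, a ratio of 0.745 (0.557 to 0.987). A single cell gave 28.7% of the day 3 UMIs, and without it the ratio turned to 1.04. Without the top cell of both days it was 0.824, so the direction rested on single cells. In monocyte/macrophage-like cells it stood at 44.4, 29.9 and 1.35 CPM at days 3, 7 and 14, so that day 7 was 0.674 times day 3 (0.565 to 0.805), or 0.218 times with equal weight for each cell. These cells gave 50.4% and 74.6% of its UMIs at days 3 and 7, and neutrophil-like cells 37.5% and 18.8%.

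Within the monocyte/macrophage-like class, Cxcl3 went from 75.6 to 36.5 CPM in the Plac8 and Chil3 cluster between days 3 and 7. After thinning, 6.70% and 7.41% of neutrophil-like cells and 2.82% and 1.17% of monocyte/macrophage-like cells had a Cxcl3 UMI at days 3 and 7, and 0 of 65 and 0 of 388 T cell-like cells did, which allows up to 4.62% and 0.773%. Unthinned, neutrophil-like cells gave 10.6% and 9.24% and monocyte/macrophage-like cells 6.41% and 2.27%. Cxcl3 had 2 UMIs in monocyte/macrophage-like cells at day 14, whereas Cxcl1 and Cxcl2 stood at their highest level there.

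Ppbp, which encodes the precursor of CXCL7, came almost wholly from monocyte/macrophage-like cells, with 98.2% of its UMIs at day 3 and 96.7% at day 7. Its level summed over this class was 82.3, 18.6 and 2.02 CPM at days 3, 7 and 14. The sum at day 7 was 0.225 times day 3 (0.188 to 0.269) and that at day 14 was 0.0246 times day 3. Neutrophil-like cells had 0 UMIs of Ppbp.

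The clusters of the class made up different shares of it on each day, and a lower level at day 7 was not seen in every cluster, so the ratios above are those of the class's sum and not of the level within a cluster. A cluster of 274, 44 and 1 cells at days 3, 7 and 14 held 93.0% and 80.1% of all Ppbp UMIs at days 3 and 7. Ppbp stood there at 140 CPM (127 to 155) and 190 CPM (161 to 224), but a single cell gave 78 of the 145 UMIs of day 7. In the C1qa cluster, Ppbp had only 3 and 17 UMIs at days 3 and 7 (4.72 and 4.68 CPM). Platelet markers summed to 3.03, 2.02 and 4.05 CPM in monocyte/macrophage-like cells at days 3, 7 and 14, with Gp1bb and Tubb1 at 0 at day 3. A single cell gave 18.7% of the class's Ppbp UMIs at day 3 and 44.6% at day 7. After thinning, 3.20% and 0.851% of these cells had a Ppbp UMI (8.61% and 2.06% unthinned). T cell-like cells gave 0 of 65 and 0 of 388, which allows up to 4.62% and 0.773%, so that at day 3 the share lay under this limit. The counts were 434 and 175 UMIs in monocyte/macrophage-like cells against 1 and 0 in T cell-like cells.

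Cxcr2, the receptor, was a neutrophil-like transcript on both days on which that class was present. Neutrophil-like cells gave 98.1% (96.9 to 98.9) and 90.6% (86.6 to 93.7) of the Cxcr2 UMIs at days 3 and 7. Its level was 1134 CPM at day 3 (1055 to 1217) and 701.5 CPM at day 7 (619 to 792), a ratio of 0.619 (0.536 to 0.713). The median cell held 2 Cxcr2 UMIs on both days, and the highest 15 and 11. Other neutrophil genes in the class were lower at day 7 too, with S100a9 at 21303 and 15322 CPM and Csf3r at 2179 and 1398 CPM, and the summed fibroblast markers in it went from 955 to 2399 CPM. Their part in the lower Cxcr2 was not tested.

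After thinning to 1000 UMIs, 125 of 224 neutrophil-like cells had a Cxcr2 UMI at day 3 (55.8%, 49.0 to 62.4) and 51 of 108 at day 7 (47.2%, 37.5 to 57.1), and these intervals overlapped. The unthinned shares were 74.9% and 68.1%, at median depths of 2859 and 3049 UMIs. Monocyte/macrophage-like cells stood at 1.90, 1.38 and 0.674 CPM at days 3, 7 and 14 with thinned shares of 0.377%, 0.319% and 0%, and T cell-like cells gave 0 of 65, 1 of 388 and 0 of 103 cells. Cxcr2 in monocyte/macrophage-like cells thus lay within the counting error of the T cell-like shares, and fibroblast-like cells had 0 UMIs on every day, which allows up to 1.503, 0.623 and 0.334 CPM at days 3, 7 and 14. At day 14 the 3 Cxcr2 UMIs lay in 1 dendritic-like and 1 monocyte/macrophage-like cell.

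**Figure D5:**
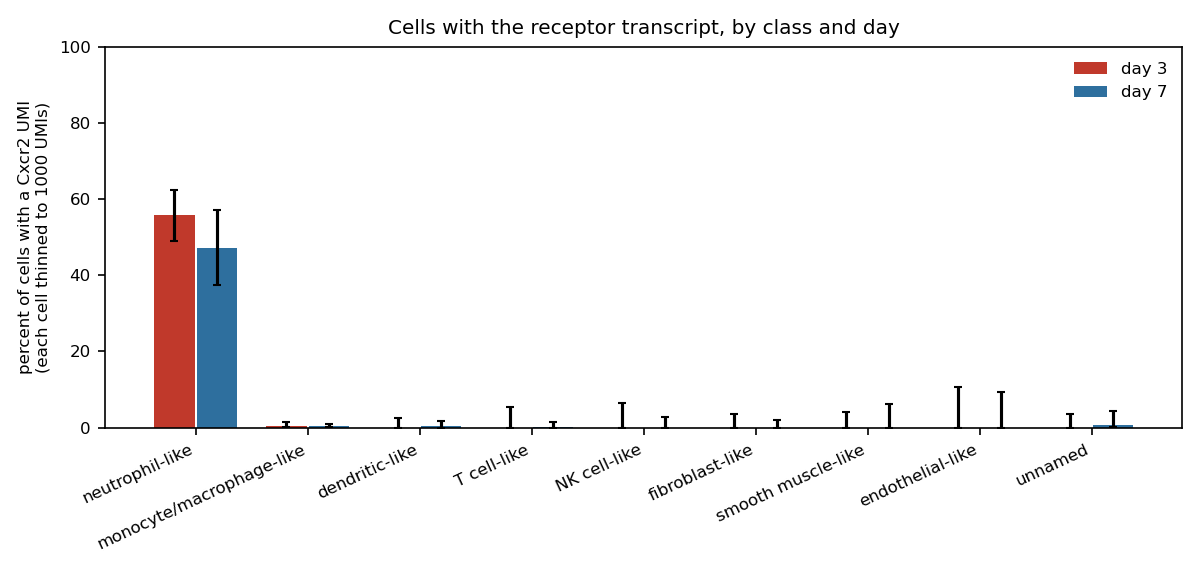
Percent of cells with at least 1 Cxcr2 UMI after thinning each cell to 1000 UMIs (vertical axis), by class, at days 3 and 7, with exact 95% binomial intervals. The neutrophil-like class stands at 55.8% and 47.2%, and the monocyte/macrophage-like and T cell-like classes at or under 0.377%.

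Ligand and receptor RNA occurred together in neutrophil-like cells. At day 3, 193 of 224 thinned cells had Cxcl2 and 125 had Cxcr2, and 102 (45.5%) had both. Cxcr2 was seen in 52.8% of the cells with Cxcl2 and in 74.2% of those without. At day 7, 92 of 108 cells had Cxcl2, 51 had Cxcr2 and 43 (39.8%) had both, with Cxcr2 in 46.7% of the cells with Cxcl2 and 50% of those without. Among monocyte/macrophage-like cells, 0, 1 and 0 cells had both at days 3, 7 and 14. By day 14, 661 CPM of Cxcl2 and 141.9 CPM of Cxcl1 therefore remained in a library with no neutrophil-like cell.

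The inducers of these ligands and genes of NF-kB feedback and mRNA decay were followed in the same classes. In monocyte/macrophage-like cells, Il1b stood at 619, 1672 and 1721 CPM and Tnf at 53.7, 147 and 291 CPM at days 3, 7 and 14. At day 14, both were among the 5 inducer genes compared and more than 2-fold above day 3, whereas 2 of the 5, Tnfrsf1a and Myd88, were lower (6.17% and 9.01% of all genes). Of 7 genes of NF-kB feedback and mRNA decay, 2 were more than 2-fold higher at day 7 (Nfkbia and Tnfaip3), against 5.96% of all genes, and 4 at day 14 (Nfkbia, Nfkbiz, Tnfaip3 and Zfp36), against 6.17%, with a median log2 ratio of 1.27 at day 14 against -0.14 over all genes. Nfkbia, which encodes the inhibitor of NF-kB that NF-kB itself induces, stood at 438, 1082 and 2207 CPM.

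In fibroblast-like cells, 5 of the 7 genes of NF-kB feedback and mRNA decay were more than 2-fold above day 0 at days 3 and 7 and 3 of 7 at day 14, against 9.95%, 11.1% and 8.9% of all genes at days 3, 7 and 14. In neutrophil-like cells, where Il1b stood at 14984 and 12074 CPM, none of the 7 differed more than 2-fold between days 7 and 3. Of all genes, 7.15% were higher and 5.86% lower by that much, so none among 7 is close to these shares. Tnf was lower, at 1771 and 701.5 CPM at days 3 and 7.

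Other genes of the circuit were followed in the same classes. Cxcr1, a receptor related to Cxcr2, was seen in neutrophil-like cells, at 29.6 and 24.3 CPM at days 3 and 7. Pf4, a platelet and macrophage chemokine gene that lies among the members on chromosome 5, stood at 2149, 748 and 695 CPM in monocyte/macrophage-like cells, so it was lower at days 7 and 14 than at day 3. Of other chemoattractants in these cells, Ccl3 (190, 449 and 1220 CPM) and Ccl4 (360, 770.5 and 2655 CPM) were more than 2-fold higher at day 14 than at day 3 (6.17% of all genes). Saa3 was lower by that much (9.01%). Of 7 chemoattractant receptor genes compared there, Cxcr4 was higher at day 14 (6.17% of all genes), and Fpr1, Fpr2, Ltb4r1 and Ccr1 were lower (9.01%). In neutrophil-like cells Fpr1 and Fpr2, receptors for formyl peptides, were more than 2-fold lower at day 7 than at day 3 (5.86% of all genes). Of 7 genes that carry or end the signal of such receptors, 6 were not past 2-fold. The other, Grk5, a kinase that switches receptors off, was more than 2-fold lower than at day 3 in 2 classes. These were monocyte/macrophage-like cells at day 14 (9.01% of all genes) and neutrophil-like cells at day 7 (5.86%). A single call among 7 genes is not read as a change of the list.

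Across 25 class-by-day groups of at least 20 cells, the genes whose log2 level was most like that of each member were named as a description, since groups of a library share its depth and cells. They were Cd14, Il1rn and Ptafr for Cxcl2 (r = 0.947, 0.919 and 0.917), Lhfpl2, Cpd and Mtus1 for Cxcl1 (0.842, 0.841 and 0.828), and Tgm1, Gm5150 and A530064D06Rik for Cxcl3 (0.976, 0.967 and 0.967). For Cxcl5 they were Lrrc15, Tfpi2 and S1pr3 (0.924, 0.894 and 0.884), for Ppbp F7, Ms4a4a and Ednrb (0.937, 0.928 and 0.925), and for Cxcr2 Asprv1, AC110211.1 and Gm20406 (0.998, 0.997 and 0.994). No gene was named for more than 1 member. As so few genes were named for each member out of 12513 compared, this lack of overlap is not read as a difference between the members.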

How the data were processed

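The authors aligned and counted the reads with Cell Ranger, and the deposited values are unnormalized UMI counts for each gene in each barcode (Cell Ranger 3.0.2 per the file headers, while the study's methods name another version). The build is not given in a usable form in the sources used here, so coordinates are those of RefSeq alone. Reads were not realigned.

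Barcodes with under 200 genes or over 20% mitochondrial UMIs (453) and the highest Scrublet scores at 0.8% per 1000 barcodes (106, since its own threshold marked 17) were removed, which left 5621 of 6161. Libraries were clustered together (scanpy 1.11.5, leidenalg 0.10.2, 2000 variable genes without the members and listed genes, 30 components, 15 neighbours, resolution 1) into 32 clusters and 10 named classes. Counts were summed per library and class and given as CPM. Ratios and levels carry exact Poisson and conditional binomial intervals, and shares Clopper-Pearson intervals. Genes with at least 20 UMIs in the 2 sums entered the counts of genes past 2-fold. Cells were thinned to 1000 UMIs for shares of positive cells. UMIs were the unit counted, so PCR copies of a molecule do not enter, and intervals cover counting error only.

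Named were the 6 members, the genes of the pathway lists, and for each member the 3 genes with the highest Pearson correlation of log2(CPM + 10). The members and lists were chosen with earlier results of these data known. The naming rule was revised once with the clusters in view. Copies, the shallower barcode of a shared pair at 5-fold or more, were set after seeing the data. The summing and interval code was tested on simulated data. The values of 1 cluster are not reported here.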

Additional observations from a re-analysis of the deposited data

Results flagged for a closer look

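The summed levels of Cxcl1 and Cxcl2 moved in opposite directions in different cell classes between the same days, each beyond its own counting interval, but 4 of these directions turned when the 1 cell with most UMIs on 1 of the days was left out, a setting chosen after seeing the data. These differences were not tested, since each day was 1 library, and each value is the later level as a ratio of the earlier.

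Cxcl1 at day 14 relative to day 3 was 0.847 in fibroblast-like cells (1.25 without a cell that held 34.7% of the day 3 UMIs), 5.36 in monocyte/macrophage-like cells and 18.2 in endothelial-like cells, the last with 86.6% of its day 14 UMIs in a single cell. Relative to day 7, Cxcl1 at day 14 was 0.685 in fibroblast-like and 1.90 in monocyte/macrophage-like cells.

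Cxcl2 at day 7 relative to day 3 was 0.430 in fibroblast-like, 0.574 in dendritic-like and 0.848 in neutrophil-like cells. It was 2.43 in monocyte/macrophage-like cells, 2.05 in smooth muscle-like cells (0.517 without a cell that held 77.6%) and 2.67 in T cell-like cells (44.2% in a single cell). At day 14 relative to day 3 it was 0.0962 in fibroblast-like and 0.118 in smooth muscle-like cells, against 5.39 in monocyte/macrophage-like cells, 1.52 in dendritic-like cells (0.139 without a cell that held 91.2%) and 35.2 in endothelial-like cells (82.2% in a single cell). Relative to day 7, Cxcl2 at day 14 was 0.224 in fibroblast-like, 2.21 in monocyte/macrophage-like and 2.66 in dendritic-like cells, the last 0.242 without that cell.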

How the results depend on the processing

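Over 42 results and 320 alternatives, 224 values stayed within the counting interval of the value reported and 86 lay outside it. A further 6 were counts of listed genes, which have no such interval and stayed near the count reported. The other 4 were ratios that turned their direction. Direction was read for ratios only. The 86 thus include shares, such as those of Cxcl2 at day 7, whose order between classes changed with equal weight for each cell. The cause was not tested for any of these changes. No paired analysis was possible because each day was a single library. Depth limits day 0 most, and gene levels there rest on few UMIs. A member absent at day 0 was not detectable at this depth. Every member had UMIs in the day 14 library, though Cxcl3, Ppbp and Cxcr2 were at the limit of detection there.

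With equal weight for each cell (a mean over cells of their CPM), whole-library ratios to day 0 were 1.37, 2.02 and 2.33 for Cxcl1 at days 3, 7 and 14, and Cxcl5 at day 3 turned to 0.534. With equal weight and no copies, chosen after seeing the data, Cxcl1 was 15.8 and 15.5 times day 0 at days 7 and 14 and Cxcl5 35.7 times at day 3, and against day 3 Cxcl5 was 0.604 and 0.131 (days 7 and 14), Cxcl2 0.403 and 0.170, and Cxcl3 0.271 and Cxcr2 0.192 at day 7. With copies, ratios to day 3 were 0.648 (day 7) and 0.585 (day 14) for Cxcl5, 0.433 and 0.177 for Cxcl2, and 0.291 for Cxcl3 and 0.206 for Cxcr2 at day 7. Cxcl2 shares were 93.0% (day 3) and 55.1% (day 7) for neutrophil-like and 28.8% (day 7) and 94.8% (day 14) for monocyte/macrophage-like cells. Neutrophil-like cells gave 99.7% of Cxcr2 and 44.4% of Cxcl3 at day 3, and fibroblast-like cells 45.2% of Cxcl1 at day 14 and 25.8% of Cxcl5 at day 7. In monocyte/macrophage-like cells the ratios to day 3 were 2.0996 for Cxcl2 and 0.218 for Cxcl3 at day 7 and 6.98 for Cxcl1 at day 14. Cxcl2 at day 7 was 0.904 in neutrophil-like cells. In fibroblast-like cells Cxcl1 was 4.18 (day 3 over 0), Cxcl5 4.21 (day 7 over 3) and Cxcl2 0.243 (day 14 over 3).

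With the 1 cell holding most UMIs of the gene left out, ratios to day 3 were 0.235 and 0.0215 for Cxcl5 (days 7 and 14), 0.392 for Cxcl2 (day 14) and 0.197 for Ppbp (day 7). Cxcl2 shares were 76.9% for neutrophil-like cells at day 3 and 62.5% for monocyte/macrophage-like cells at day 7. Cxcl3 shares at day 3 were 56.5% for monocyte/macrophage-like and 29.95% for neutrophil-like cells, and the fibroblast-like share of Cxcl5 at day 7 was 53.0%. In monocyte/macrophage-like cells the ratios at day 7 were 3.68 for Cxcl1, 0.153 for Ppbp and 0.563 for Cxcl3, and Cxcl3 at day 14 went to 0. In fibroblast-like cells Cxcl5 at day 7 was 2.26 and Cxcl2 at day 14 was 0.0701.

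With libraries clustered separately, monocyte/macrophage-like cells gave 64.1% and 93.4% of Cxcl2 at days 7 and 14 with a day 7 ratio of 2.25. Fibroblast-like cells gave 77.3% of Cxcl1 at day 14 and 98.3% and 68.1% of Cxcl5 at days 3 and 7. Their ratios were 47.0 for Cxcl1 (day 3 over 0), 0.309 for Cxcl5 (day 7 over 3, turned) and 0.219 for Cxcl2 (day 14 over 3). At resolution 1.5 the same ratios were 28.0, 0.562 (turned) and 0.135, with 36.4% of Cxcl5 at day 3 in fibroblast-like and 93.4% of Cxcl2 at day 14 in monocyte/macrophage-like cells. With the Prg4 and Mmp3 cluster in the fibroblast-like class, chosen after seeing the data, they were 60.1, 0.328 (turned) and 0.173, with 73.2% and 68.3% of Cxcl5 at days 3 and 7.

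The C1qa cluster alone, also chosen after seeing the data, gave ratios to day 3 at days 7 and 14 of 1.95 and 3.61 for Cxcl2 and 1.80 and 2.15 for Cxcl1, and 0.992 for Ppbp at day 7. Without copies, likewise chosen, Cxcl1 in the whole library was 21.7, 15.3 and 14.7 times day 0, and Cxcl5 at day 3 was 106 times. Median-ratio scaling gave Cxcl2 ratios to day 3 of 0.891 in the library at day 7 and of 2.64 and 5.93 in monocyte/macrophage-like cells. With doublets kept, the day 7 shares of Cxcl2 were 27.6% for neutrophil-like and 62.2% for monocyte/macrophage-like cells and the neutrophil-like ratio was 0.871. With at most 10% mitochondrial UMIs, the Cxcl2 ratio at day 14 was 0.397 and the neutrophil-like shares were 77.9% and 29.1%. The Cxcr2-positive shares of neutrophil-like cells were 67.9% and 61.7% when thinned to 2000 UMIs and 74.9% and 68.1% unthinned.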
